A study of Mus musculus with 5 samples.

Results

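Transcripts of 10 activation-induced early genes were followed in splenic germinal center B cells of the mouse. They were Egr1, Egr2, Egr3, Nr4a1, Fos, Fosb, Jun, Junb, Jund and Dusp1, chosen by name and written in capitals in the table (EGR1, NR4A1, FOS, JUN, DUSP1 and so on). Each name occurred once among the 38924 genes of the table, and all 10 reached the minimum mean level for testing. The cells came from 12-week-old mice and were sorted by flow cytometry 7 days after sheep red blood cells were given. The DKO group (2 libraries) is labelled relbfl/flnfkb2fl/flCg1-Cre, with both alleles of Relb and of Nfkb2 floxed. The WT group (3 libraries) consisted of littermates labelled Cg1-Cre, so the Cre transgene is common to both groups. Cg1-Cre, driven from the IgG1 constant region locus, acts from about the time B cells enter the germinal center, so deletion begins after activation. The series title describes the sorted cells as eGFP+. Whether each library came from 1 mouse is not stated, so p-values measure only the spread between these libraries, which may be technical.

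Early genes are switched on within minutes of a stimulus, without new protein synthesis, through factors such as SRF, its Elk partners and CREB that are already present in the cell. Egr and Nr4a proteins are transcription factors widely used as readouts of antigen receptor signaling in lymphocytes. Fos and Jun proteins pair through leucine zippers to form the AP-1 factors, and Dusp1 encodes a phosphatase that switches off the MAP kinases which induce these genes. In the germinal center, B cells that bind antigen and receive T cell help in the light zone are known for early gene transcripts.

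The values are normalized counts, reads divided by 1 factor per library. Library totals ran from 34.0 to 57.6 M reads. Of these, 15.4 to 15.5 M in WT and 17.7 and 17.6 M in DKO lay outside the mitochondrial genome, so this depth differed by genotype. The targeted genes were lower in both DKO libraries, with Relb at 117 to 171 across WT against 56.9 in DKO replicate 1 and 10.7 in DKO replicate 2, and Nfkb2 at 445 to 657 against 298 and 73.5. Of 13 germinal center B cell markers listed, 12 were in the table and all 12 were above 0 in every library, with summed levels of 133844 to 213689 in WT and 132717 to 149669 in DKO. Mki67 was the largest part of each sum, at 38036 to 120604 in WT and 68565 and 54064 in DKO. Rgs13 (3777 to 8381 in WT, 1476 and 1989.8 in DKO) and Cd79a (11264 to 14674, and 10703 and 8981) were lower in both DKO libraries. The other markers overlapped between groups. WT replicate 2 and DKO replicate 1 stood apart by their lymphocyte markers. The 12 T cell markers summed to 1543 and 785 there, against 84.6 to 211 in the other 3 libraries. The 9 naive B cell markers in the table summed to 25902 and 23276, against 8871 to 12700.1, and 8 NK cell markers to 339 and 126, against 5.77 to 26.8. The 9 myeloid markers in the table summed to 1479.5, 1052 and 289 in WT and 1392 and 783 in DKO. The 6 plasma cell markers summed to 11333, 8453 and 9540.5 in WT and were lower in DKO, at 6837 and 7915. Of the 5 plasma cell markers tested, 0 had an unadjusted limma p below 0.05. In sorted bulk RNA, fewer cells of a type and less RNA per cell cannot be told apart.

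Promoter sequence was found for 8 of the 10 genes, all but Egr1 and Egr3, in RefSeq (GRCm38.p6). It was searched over the 250 bases before each start. Fos, Fosb and Jun, whose levels were highest in DKO replicate 2, are shown with a stretch of Egr2, which was lower in both DKO libraries. Dusp1, not shown, was also highest in DKO replicate 2, at 583 against 511 in WT replicate 3. Capitals mark the core TGACG of the cyclic AMP response element on either strand (CGTCA on the other), the AP-1 site TGACATCA in Jun, and the CArG box, the binding site of SRF, in Egr2. The Fos window is chr12:85473640-85473889 on the plus strand, that of Fosb chr7:19310046-19310295 on the minus strand, that of Jun chr4:95052223-95052472 on the minus strand, and the 30 bases of Egr2 are chr10:67537789-67537818 on the plus strand.
Fos: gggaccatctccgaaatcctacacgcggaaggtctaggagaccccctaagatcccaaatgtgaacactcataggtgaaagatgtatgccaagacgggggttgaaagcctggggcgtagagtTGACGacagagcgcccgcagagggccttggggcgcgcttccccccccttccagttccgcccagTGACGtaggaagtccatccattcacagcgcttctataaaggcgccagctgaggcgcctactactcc
Fosb: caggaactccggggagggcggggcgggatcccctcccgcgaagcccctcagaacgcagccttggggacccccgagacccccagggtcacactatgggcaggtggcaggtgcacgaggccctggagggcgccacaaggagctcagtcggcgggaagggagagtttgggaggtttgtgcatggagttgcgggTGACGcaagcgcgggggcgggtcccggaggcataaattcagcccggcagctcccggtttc
Jun: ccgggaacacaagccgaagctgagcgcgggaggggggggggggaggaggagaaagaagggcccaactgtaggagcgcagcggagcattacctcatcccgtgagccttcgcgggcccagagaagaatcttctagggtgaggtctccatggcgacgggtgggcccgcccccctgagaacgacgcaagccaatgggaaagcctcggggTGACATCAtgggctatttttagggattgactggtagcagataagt
Egr2: tcctcagtCCATATATGGgcagcgaCGTCA

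The TGACG core was found in 6 of the 8 genes (Egr2, Nr4a1, Fos, Fosb, Junb and Dusp1), against 19.8% of all 27025 genes with a promoter sequence. It began 66 and 129 bases before the start in Fos and 60 bases before it in Fosb. Jun held no such core and had TGACATCA 45 bases before its start, a motif found in 3.41% of genes. A CArG box was present in Egr2 alone of the 8, in 4 of its 5 listed windows, against 1.62% of genes. CCATATATGG recurred in listed windows 3, 4 and 5 with the same spacing to the TGACG core, so these are not separate sites. Window 2 held a different box, CCTTTTTTGG, without a TGACG core. Dusp1 held the full element TGACGTCA, which overlaps the core on both strands and occurs in 1.77% of genes. The κB motif, by its general consensus, was matched in Egr2, Fos and Fosb, against 8.23% of genes. Neither the AP-1 site TGACTCA nor the Egr site GCGTGGGCG was matched in the 8 genes, against 5.16% and 0.622% of genes. These are matches of letters within the windows and no measurement of binding.

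Compared between genotypes, the family split. Egr1 and Egr2 were lower in both DKO libraries than in every WT library, Fosb and Jun were higher in both, and the other 6 genes overlapped. That is 4 of 10 genes without overlap, where 23.4% of the 13242 genes tested had none. The 2 lower and 2 higher genes compare with 11.0% and 12.5% of all tested genes. Each of the 4 also had an unadjusted limma p below 0.05, as did 6.06% of all tested genes (3.69% higher and 2.37% lower in DKO). This number depends on single libraries: Egr1 and Jun kept such a p without WT replicate 1, Fosb alone of the 4 without WT replicate 2, Egr1 alone without WT replicate 3 or DKO replicate 2, and Fosb and Jun without DKO replicate 1. None of the 10 passed the adjusted threshold of 0.05, and neither did any gene of the table (0% called). For recovered reads, edgeR gave 0 calls (748 genes below 0.05 before adjustment) and DESeq2 called 0.219% of genes, none of the 10. Before adjustment, limma put 489 genes higher and 314 lower. Scaling libraries to their reads outside mitochondrial genes made this 643 and 195 and shifted the median of all genes by 0.07.

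**Figure D1:**
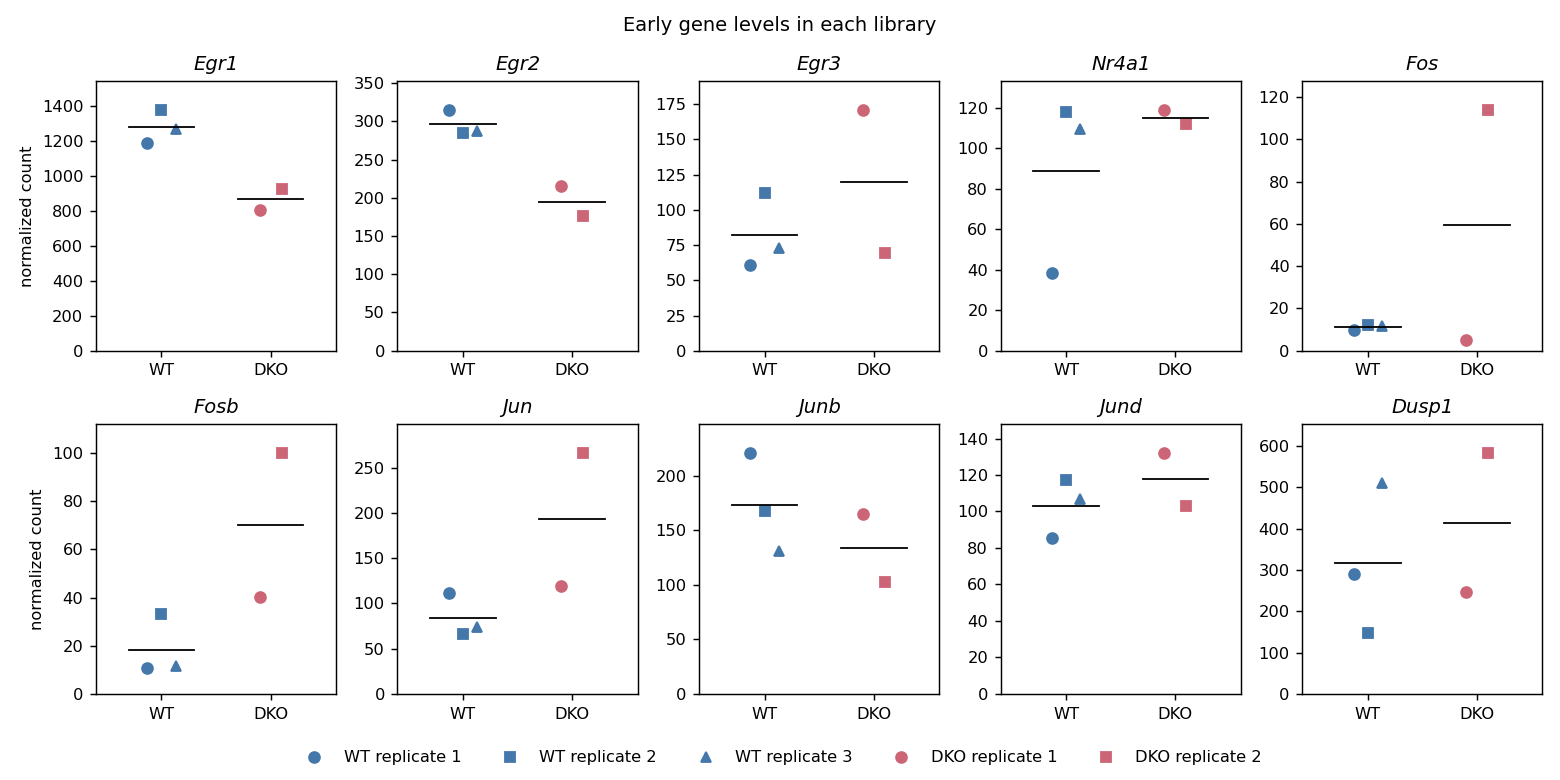
Normalized counts of the 10 early genes (vertical axes, each from 0) in the 3 WT and 2 DKO libraries, 1 point per library, with lines at the group means. The DKO points of Egr1 and Egr2 lie below all WT points, those of Fosb and Jun above them, and Fos stands at 114 in DKO replicate 2 alone.

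Egr1, the zinc finger factor induced by the ERK pathway, had the most reads of the 10 genes. It measured 1188, 1377 and 1269 in the WT libraries against 806 and 926 in the DKO pair. Both DKO libraries lay below the lowest WT library, and the DKO mean was 0.677 of the WT mean. On log2(value + 1), the fitted change was −0.56 ± 0.20 (SE, adjusted p = 0.823, limma). With 920 to 1335 reads per library, the 95% counting intervals, exact Poisson intervals that cover counting error only, were 872 to 982 in DKO replicate 2 and 1119 to 1260.3 in WT replicate 1. These are the neighbouring libraries of the 2 groups, and their intervals did not meet.

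Egr2, a related factor known to restrain lymphocyte activation and to be induced by antigen receptors, had the same pattern. It had WT levels of 315, 285 and 288 and DKO levels of 215 and 176, again without overlap. WT libraries differed by 1.11 times from highest to lowest, and 96.1% of tested genes differed by as much or more. Its log2 difference between genotypes was −0.60 ± 0.26 (adjusted p = 0.823, limma). Scaled to reads outside mitochondrial genes, the unadjusted p of limma was 0.0548 for Egr1 and 0.0778 for Egr2, against 0.0202 and 0.0446 as deposited, and the groups still did not overlap.

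Egr3, which shares its DNA motif with Egr1 and Egr2, did not follow them. It stood at 61.0, 112 and 73.0 (WT replicates 1 to 3) and 171 and 69.4 (DKO replicates 1 and 2), so the DKO libraries lay on both sides of WT replicate 2. The highest values were those of DKO replicate 1 and WT replicate 2, the libraries with the most T cell and naive B cell marker transcripts, and the part of these in the result was not tested. The fitted log2 change was 0.45 ± 0.48 (adjusted p = 0.907, limma), −0.19 without DKO replicate 1 and 0.05 without both of these libraries.

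Nr4a1, the orphan nuclear receptor Nur77 that reports antigen receptor signals, was even across 4 of the 5 libraries. It measured 38.5, 118 and 109.6 in the WT libraries against 119 and 112 in the DKO pair. WT replicate 1 was the low library, 3.05 times below the highest WT library, and both DKO values were close to those of the other 2 WT libraries. The genotype contrast, in log2, was 0.53 ± 0.51 (adjusted p = 0.896, limma), and 0.02 without WT replicate 1.

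Fos, the founding partner of AP-1, had few reads in 4 libraries and many in 1. It had WT levels of 9.64, 12.4 and 11.5 and DKO levels of 5.25 and 114. In reads, these were 9, 12 and 12 in WT, 6 in DKO replicate 1 and 138 in DKO replicate 2. The counting interval in DKO replicate 2, 95.8 to 135 normalized counts, lay above those of the 4 other libraries, the highest of which ended at 21.6. DKO replicate 2 held 9.21 times the level of the next library, and 6 of 13242 tested genes (0.0453%) were at least 8 times higher there than in every other library. Genes with such a peak numbered 10, 18 and 0 in WT replicates 1 to 3 and 5 in DKO replicate 1. The 2 DKO libraries differed by 21.7 times, and 0.340% of tested genes had a gap as large or larger. In limma the log2 fold change came to 1.14 ± 1.15 (adjusted p = 0.899, limma), and −0.96 without DKO replicate 2. On the recovered reads it was 2.40 with edgeR and 2.41 with DESeq2, with unadjusted p of 0.0498 and 0.031 and adjusted p of 0.856 and 0.656. This made 5 of the 10 genes with an unadjusted p below 0.05 in either tool. Over all 13242 tested genes, 748 (edgeR) and 897 (DESeq2) had such a p. The genotype contrast of Fos therefore rests on 1 library.

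Fosb, a paralog that forms AP-1 with Jun proteins, stood at 10.7, 33.0 and 11.5 (WT replicates 1 to 3) and 40.3 and 99.9 (DKO replicates 1 and 2). The groups did not overlap, though the counting intervals of DKO replicate 1 (29.5 to 53.7) and WT replicate 2 (22.6 to 46.6) did. DKO replicate 2 was again the highest library, 2.48 times above DKO replicate 1. Its log2 difference between genotypes was 1.92 ± 0.71 (adjusted p = 0.823, limma), the largest in size of the 10 in limma. With edgeR and DESeq2 it was 1.91 and 1.93, below the 2.40 and 2.41 of Fos. In limma the value of Fosb was 1.27 without DKO replicate 2. It was 3.06 without WT replicate 2 and DKO replicate 1, the libraries with the most T cell marker transcripts.

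Fosb lies on chromosome 7 near the targeted gene Relb, with 15 protein-coding genes between them in the gene order of GENCODE M21. Of the 11 of these that were tested, 5 had higher and 6 lower values in DKO, with a median log2 fold change of −0.23. None was higher in both DKO libraries than in all WT libraries, and 4 of 11 were lower in both, against 12.5% and 11.0% of all tested genes. The part of the targeted locus in the level of Fosb was not tested.

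Jun, the AP-1 subunit that binds DNA with any Fos protein or with itself, measured 112, 66.0 and 74.0 in the WT libraries against 119 and 266 in the DKO pair. DKO replicate 1 lay just above WT replicate 1, with counting intervals of 99.9 to 141 and 91.9 to 136, and DKO replicate 2 lay well above both. The fitted log2 change was 1.11 ± 0.44 (adjusted p = 0.823, limma), 0.53 without DKO replicate 2 and 1.69 without DKO replicate 1. With quantile scaling the groups of Jun overlapped, leaving 3 early genes without overlap, against 23.3% of all tested genes. Scaling to reads outside mitochondrial genes gave 5, with Nr4a1 added as higher in DKO, against 23% of all tested genes.

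The other Jun genes did not share this. Junb, known to oppose Jun at many promoters, had WT levels of 221, 168 and 131 and DKO levels of 165 and 103. Its lowest value was in the library where Fos, Fosb, Jun and Dusp1 were highest. The genotype contrast, in log2, was −0.37 ± 0.36 (adjusted p = 0.896, limma), −0.04 without DKO replicate 2 and −0.71 without DKO replicate 1. Jund, the least inducible member of the family, stood at 85.6, 117 and 107 (WT replicates 1 to 3) and 132 and 103 (DKO replicates 1 and 2). In limma the log2 fold change came to 0.19 ± 0.34 (adjusted p = 0.944, limma), and 0.02 without DKO replicate 1.

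Dusp1, the nuclear phosphatase that inactivates p38, JNK and ERK, varied widely within both genotypes. It measured 290.1, 147 and 511 in the WT libraries against 247 and 583 in the DKO pair. The highest WT library was 3.49 times the lowest, and the DKO libraries differed by 2.36 times, so no difference by genotype was seen beyond this spread. Its log2 difference between genotypes was 0.44 ± 0.53 (adjusted p = 0.914, limma), −0.02 without WT replicate 2 and −0.18 without DKO replicate 2.

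**Figure D2:**
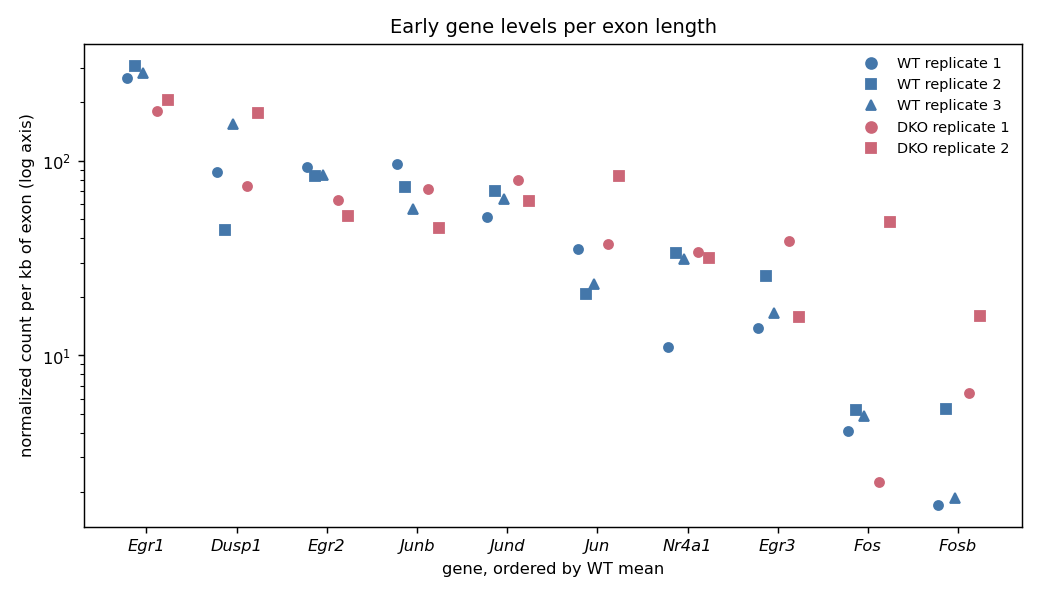
Normalized counts per kilobase of exon (log axis) for each early gene, ordered by WT mean, 1 point per library. Egr1 leads in every library, and Fos and Fosb are last in every WT library, with their highest points in DKO replicate 2.

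Levels can be compared between genes only per length, here per kilobase of merged exons in GENCODE M21. On that scale Egr1 led in WT, at 285 ± 21.2 (SD, n = 3) normalized counts per kilobase, above 81.0% of tested genes with a length. Dusp1 (95.4 ± 55.5), Egr2 (87.1 ± 4.82), Junb (75.2 ± 19.6) and Jund (61.7 ± 9.47) followed, and neighbours among these 4 overlapped. Jund stood above the next gene in every WT library, and then came Jun (26.4 ± 7.78), Nr4a1 (25.2 ± 12.4) and Egr3 (18.7 ± 6.11), with Nr4a1 overlapping both of the others. Fos (4.75 ± 0.598) and Fosb (2.95 ± 2.03) were last, overlapping each other, and all WT values of Egr3 lay above those of Fos. Only 6.12% of tested genes lay below Fos and 3.09% below Fosb in WT on this scale.

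In DKO, Egr1 was first again at 193 ± 19.0 (SD, n = 2) and Dusp1 the second at 125 ± 71.8 normalized counts per kilobase. Egr2 moved from the third to the sixth place, at 57.5 ± 8.04, and Jun from the sixth to the fourth, at 60.4 ± 32.6. From Dusp1 to Junb each gene overlapped the next in this order, and Egr2 lay above Nr4a1 in both DKO libraries. Fos (25.3 ± 32.7) and Fosb (11.2 ± 6.76) stayed last by mean. In DKO replicate 2 alone, Fos reached 48.5, close to Junb at 44.9 and Egr2 at 51.8.

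Differences between 2 genes within a library, on log2(value + 1), largely cancel that library's scaling factor, and were read only for how they shift between libraries. Fosb minus Egr1, in log2, was −6.67, −5.34 and −6.66 in WT and −4.29 and −3.20 in DKO. Jun minus Egr1 was −3.39, −4.36 and −4.08 in WT and −2.75 and −1.80 in DKO. The groups separate in these 2 differences because Egr1 was lower and Fosb and Jun higher without overlap, so this restates the values above. Egr2 minus Egr1 stayed between −2.39 and −1.90 in all 5 libraries, with the DKO libraries on both sides of the WT range. Fos minus Egr1 ran from −6.81 to −6.66 in WT, with DKO replicate 1 below this range at −7.01 and DKO replicate 2 above it at −3.01. Fos minus Junb was 0.14 in DKO replicate 2 and between −4.73 and −3.39 elsewhere.

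**Figure D3:**
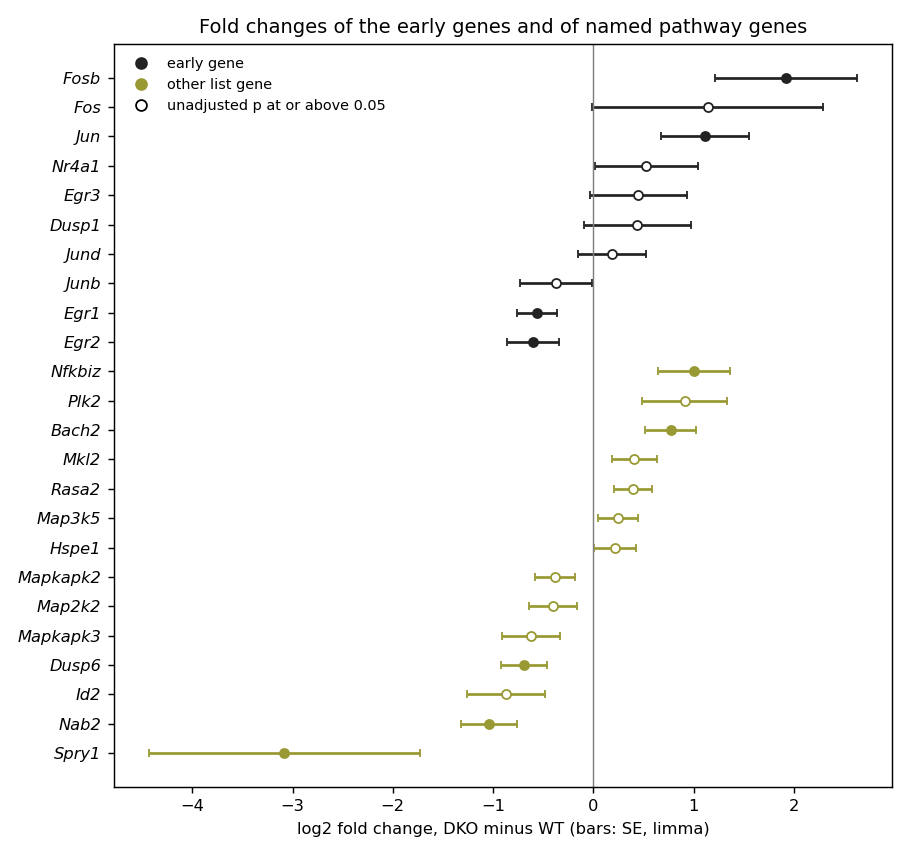
Log2 fold changes of DKO over WT with standard errors from limma (n = 3 WT, 2 DKO) for the 10 early genes and for pathway genes described in the text. Filled points mark an unadjusted p under 0.05; none passed the adjusted threshold.

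Partners and regulators of these genes were taken from 7 lists, and in none of them did a gene pass the adjusted threshold. In the list of other Egr and Nr4a genes and their cofactors, 3 of 5 were tested and all 3 had lower values in DKO. Nab2, the corepressor that binds Egr proteins and is itself induced by them, had WT levels of 323, 371 and 318 and DKO levels of 194 and 136. It did not overlap between groups, and the fitted change in log2 was −1.04 ± 0.28 (limma, adjusted p = 0.823). Nab1, its paralog, was at 1777, 1751 and 1023 against 1421 and 918. Nr4a3 ranged from 9.61 to 57.8 over the 5 libraries, and Nr4a2 had no read in WT and 8 and 3 reads in DKO.

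Among other AP-1 and bZIP partners, 12 of 16 were tested, 6 with higher and 6 with lower values and a median log2 fold change of 0.03. Bach2, a bZIP repressor that competes with AP-1 for DNA, was the only one without overlap, with WT levels of 16566, 16775 and 11155 against 25304 and 24445 for DKO. Of 28 tested among 30 other immediate early genes, 14 had higher and 14 lower values (median 0.01), and 7 did not overlap, a share near the 23.4% of all tested genes. The atypical IκB gene Nfkbiz stood at 430.4, 226 and 215 (WT replicates 1 to 3) and 701 and 436 (DKO replicates 1 and 2), with a log2 fold change of 1.0 ± 0.36 (limma, adjusted p = 0.823). Plk2, a polo-like kinase, was at 51.4, 70.2 and 104 against 111 and 166, while Id2, an inhibitor of E proteins, was at 81.4, 97.0 and 81.7 against 42.9 and 51.2. The median over all tested genes was 0.001.

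Not every early gene was high with Fos in DKO replicate 2. Ier2, Atf3 and Zfp36 were chosen as examples after their values were seen, and Rgs1, described further on, was high there. Ier2 measured 25.7, 128 and 27.9 in the WT libraries against 18.4 and 28.1 in the DKO pair. Atf3, a stress-induced bZIP factor, was at 36.4, 47.5 and 34.6 against 1.75 and 45.4, so its low library was DKO replicate 1. Zfp36, an RNA-binding protein that destabilizes cytokine messages, was at 2349.9, 3623 and 3454 against 3583 and 3519. For all 3 genes the level in DKO replicate 2 lay within the range of WT.

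Of 16 feedback phosphatases and Ras-ERK inhibitors, 14 were tested, 9 with higher and 5 with lower values (median 0.05). Groups did not overlap for 1 higher and 2 lower of the 14, against 12.5% and 11.0% of all tested genes. Dusp6, the cytoplasmic ERK phosphatase whose transcription follows ERK activity, had WT levels of 470.0, 435 and 449 and DKO levels of 266 and 292. Its groups did not overlap, and the fitted log2 difference was −0.69 ± 0.23 (adjusted p = 0.823, limma). Spry1, another ERK-induced inhibitor, had 6, 38 and 8 reads in WT and 0 and 2 in DKO (adjusted p = 0.823, limma). Rasa2, a Ras GTPase activator, was at 1999.8, 2018 and 1823 against 2737 and 2393.

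Upstream kinases showed no common direction. Of 22 genes of the ERK cascade and SRF partners, all tested, 10 had higher and 12 lower values (median −0.02). Groups did not overlap for 5 higher and 1 lower of the 22, against 12.5% and 11.0% of all tested genes. Mkl2 and Map2k2 were among those without overlap, at log2 fold changes of 0.41 and −0.40. Of 15 JNK and p38 cascade genes, 14 were tested, 7 in each direction (median −0.01). Map3k5 (0.25), Mapkapk2 (−0.38) and Mapkapk3 (−0.62) did not overlap between groups. These were 1 higher and 2 lower of the 14, against 12.5% and 11.0% of all tested genes. Heat shock genes, often raised by stress of handling, had 2 higher and 7 lower values among 9 tested of 11 (median −0.03). Hspe1, a mitochondrial chaperonin, was the only tested one without overlap, with a log2 fold change of 0.22 ± 0.21. The stress-inducible Hspa1b, below the minimum level for testing, had 2, 0 and 4 reads in WT and 18 and 17 in DKO, also without overlap. Its near-identical copy Hspa1a had 26, 0 and 2 reads against 3 and 25, and the division of reads between these copies is uncertain. Hspa1b is named after its values were seen, and the part of handling in the early gene levels was not tested.

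**Figure D4:**
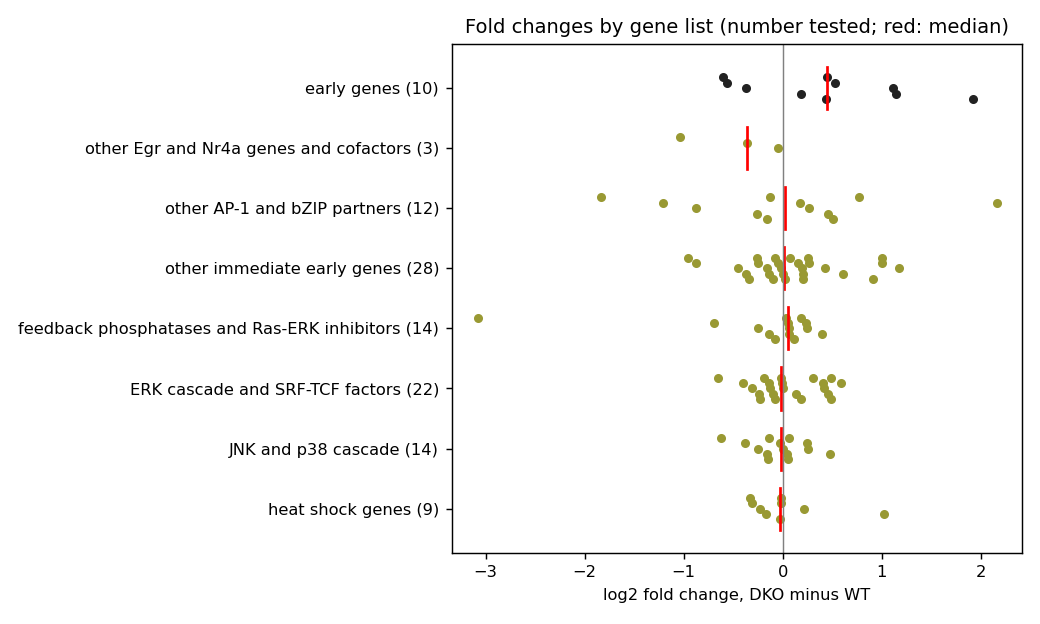
Log2 fold changes of DKO over WT for each tested gene of the early genes and of 7 lists (number tested in brackets), with the median of each list in red. The medians of the 7 lists, other than that of the 3 Egr and Nr4a relatives, lie between −0.03 and 0.05. The 10 early genes spread from −0.60 to 1.92 with a median of 0.44, 7 of them higher and 3 lower. Without DKO replicate 2, 5 were higher and 5 lower.

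Genes with the most similar profile over the 5 libraries were found by the distance between centred log2 levels. For Egr1 these were Pdcd2l (124, 139 and 122 in WT, 80.6 and 94.2 in DKO), Zfpm1 and Dnpep, at distances of 0.09, 0.09 and 0.10. For Fos, Serinc3 was nearest at 0.51, with 3068, 3667 and 3359.5 in WT, 2588 in DKO replicate 1 and 35566 in DKO replicate 2. Rgs1, an early gene of the lists that regulates G protein signaling, was the next for Fos at 1.42, with 491 in DKO replicate 2 and 92.8 to 131 elsewhere, and Dok2 followed at 1.64. For Jun the nearest were Il18bp (0.41), Gsto1 (0.51) and Pkig (0.62). The nearest gene of Fos was thus farther from it than the nearest gene of Egr1 or of Jun. The distance is in log2 units over 5 libraries.

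Short structure is a further trait shared by most of the 10 genes. In GENCODE M21, 8 of 10 spanned at most 8 kb, against 18.3% of 10607 tested protein-coding genes with a median of 24.2 kb. The exceptions were Nr4a1, at 20.5 kb, and Dusp1, for which the annotation gives 56.5 kb. Jun and Jund had a single exon, and 8 of 10 had at most 5 exons, against 24.5% of those genes.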

How the data were processed

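Total RNA of the sorted cells was amplified with the NuGEN Ovation RNA-Seq System V2, per the labels' protocols. Tools listed, per the submitters' processing notes, are TopHat2 2.0.4, Cufflinks 2.0.2 and CASAVA 1.8.2, with build mm9. Not given in the sources used here: counting tool, annotation, strand use and origin of the scaling, so reads of overlapping genes cannot be told apart. The authors deposited 1 normalized signal per gene and library. At least 99.99% of the values above 0 in each library were whole multiples of 1 step within 0.01, and dividing by that step gave back reads.

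Genes with a mean of at least 10 entered a two-sided limma test (limma 3.58.1, R 4.3.3; trended prior variance) of log2(value + 1), with Benjamini-Hochberg adjustment over all genes. Residual degrees of freedom were 3. EdgeR 4.0.16 and DESeq2 1.42.0 were run on the recovered reads. Alternatives were the pseudocount, the minimum, the scaling, library weights, a replicate block and leaving out libraries. The scripts were tested on simulated data. Named genes were the 10 early genes, Relb and Nfkb2, up to 3 genes per list with the smallest p among those without overlap, and the 3 nearest profiles of Egr1, Fos and Jun, unnamed gene models left out. One gene that the rule names is not reported here. The genes and lists were chosen with earlier results of these data known. Lengths, exon counts and gene order come from GENCODE M21 (GRCm38) by symbol. Libraries of a group differed beyond sampling noise, with a chi-square per gene of at least 46.7.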

Additional observations from a re-analysis of the deposited data

How the results depend on the processing

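The 10 log2 fold changes kept their sign with other pseudocounts, minimum values, scalings, tests and weights, except that Fos and Fosb are not tested at a minimum of 50. Leaving out 1 library gave ranges of −0.96 to 3.25 for Fos, −0.19 to 1.09 for Egr3 and −0.18 to 1.06 for Dusp1, with a change of sign in each, and kept the sign of the other 7 genes, though Nr4a1, Jund and Junb came as near 0 as 0.02, 0.02 and −0.04; with 1 DKO library left, it is assumed to vary like the WT libraries. None of the 10 passed the adjusted threshold at any setting. The count of genes passing it was 29 with DESeq2 and 2 with library weights, and 0 to 1 when 1 library was left out. Before adjustment, 1292 genes had p below 0.05 with no minimum value, where more genes are tested, and 307 to 1105 when 1 library was left out. Genes of the 10 without overlap numbered 4 to 8 in those fits, where fewer libraries are compared and 35.7% to 53% of all tested genes do not overlap. Without WT replicate 2 and DKO replicate 1, 324 genes had p below 0.05 before adjustment, 8 of the 10 and 63.1% of all tested genes did not overlap, and Fos came to 3.32 (unadjusted p = 0.00597, limma). The replicate number shared by WT and DKO libraries is no stated pairing. Deviations of same-numbered libraries from their group means correlated at 0 (replicate 1) and −0.28 (replicate 2). The deviations of the 2 DKO libraries are equal and opposite, so these correlations cannot decide whether libraries were paired. With the replicate number as a block, 36 genes passed the adjusted threshold, none of them among the 10, WT replicate 3 drops out of the contrast, and of the 10 Dusp1 alone had an unadjusted p below 0.05 (log2 change 0.88; limma). The cause of these differences was not tested. Depth limits Fos and Fosb, with 6 to 46 reads outside DKO replicate 2.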
